A study of Homo sapiens with 8 samples.

Results

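The response to Nutlin-3a of CHP212 cells with FAM193A knocked out was described for 15471 genes, those with at least 10 reads in at least 2 of the 4 knockout libraries, out of 25369 genes listed. CHP212 is a human neuroblastoma cell line with very high MYCN transcript levels, and FAM193A is a protein-coding gene whose role the labels do not give. The knockout (KO) cells received 0.2% DMSO, the vehicle, or Nutlin-3a at 10 uM, each for 12 h, and poly(A) RNA of 2 independent biological replicates per group was sequenced. Unmodified CHP212 cells (wild type, WT) were treated in the same 2 ways and serve here only for comparison. All cells were grown in DMEM:F12 with 10% serum. The labels name 1 knockout population and do not describe the edit, so the lost gene and any other property of that population cannot be told apart. The threshold of 10 reads left 120 genes just inside, with exactly 10 reads in their second-highest library, and 142 genes just outside, with 9.

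Nutlin-3a is a small molecule that fills the pocket of MDM2 in which p53 binds. MDM2 is a ubiquitin ligase that marks p53 for destruction, so blocking the pocket lets p53 build up without DNA damage. Stabilised p53 binds DNA as a tetramer and switches on genes for cell cycle arrest, cell death, repair and its own restraint, MDM2 among them. One of its targets, CDKN1A, encodes the kinase inhibitor p21. By keeping RB-family proteins active, p21 lets repressor complexes settle on cell cycle genes, at E2F sites in genes of DNA synthesis and at CHR elements in genes of mitosis.

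The 4 knockout libraries held 32167147 to 38010075 reads, and the 4 WT libraries 28390405 to 31256915. Values below are CPM, the usual depth-normalised read count after scaling by TMM, unless reads or RPKM (the deposited values, also divided by gene length) are named. Log2 fold changes, with standard errors (SE), are from edgeR's quasi-likelihood test over all 8 libraries, and a gene was called at a Benjamini-Hochberg adjusted p under 0.05 over 15879 tested genes. FAM193A itself was still read in the knockout cells, with 1244 and 1240 reads under DMSO and 1548 and 1269 under Nutlin-3a, so its level is a weak check of the genotype label. HAND2, a defining transcription factor of adrenergic neuroblastoma, was abundant in KO DMSO cells, with a mean RPKM of 363. The tyrosine hydroxylase gene TH stood at only 9.70 and 10.9 CPM there, against 477 and 480 in WT DMSO cells.

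Replicate 2 of KO Nutlin-3a carried reads of unrelated genes, most of them intestinal, beside the immunoglobulin J chain gene IGJ. CEACAM5 had 89 reads there against 0 in the other Nutlin-3a library, PIGR 137 against 1, and IGJ 89 against 0. Over 11 such genes, chosen after their values were seen, that library held 724 reads and WT DMSO replicate 2 held 636, against 39 to 62 in each of the other 6 libraries. None of CEACAM5, PIGR and IGJ was called in edgeR's test (adjusted p = 0.393, 0.291 and 0.358), but MUC2 (0 and 1 reads under DMSO, 22 and 53 with Nutlin-3a) was. The edgeR fit with a replicate block called CEACAM5 and PIGR (adjusted p = 8.06e-06 and 0.00544), and the edgeR fit without a low-count filter called all 3 (1.5e-16, 1.83e-21 and 1.11e-09). Among genes with at least 50 reads in either KO Nutlin-3a library, the 8 with the largest ratio between the replicates were LGALS4, RPSAP58, MUC2, SCARNA15, HS3ST1, MTRNR2L2, GTF3C2-AS1 and SNORD78, and MUC2 was the only one called. Marker lists of other lineages were close to silent. Summed over 19 blood and immune markers, the level was 2.18 to 2.26 CPM under DMSO and 3.85 to 4.15 under Nutlin-3a, with 6 of the 19 at 0 reads in all 4 libraries. The 15 epithelial markers summed to 14.8 to 14.9 and 29.6 to 30.2 CPM, with CLDN4, KRT19 and CLDN3 called higher, and CLDN4 (5.92 and 6.38, then 15.0 and 12.8) was close in both replicates. Endothelial and glial markers, 5 tested of each, gave 0 calls in edgeR's test and 0 in the DESeq2 Wald test, with 1 endothelial and 0 glial genes at an unadjusted p under 0.05. LAPTM5, a lysosomal protein of blood cells, was the 1 blood marker called higher, with 1, 0, 23 and 17 reads. The part of these genes in the response was not tested. Of the liver, pancreas and muscle markers only ALB, 1 of 4 tested, was called higher. The calls of MUC2, CLDN3 and ALB were lost without 1 knockout library. Every gene named below as risen or fallen kept non-overlapping groups, which for many was a condition of choice. The groups did not overlap for 34.2% (higher) and 37.3% (lower) of all tested genes. Named genes whose call was lost without 1 knockout library are marked.

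Rises with Nutlin-3a reached further than falls in knockout cells. Among the 15390 members tested, 2826 were higher and 3269 lower, where 18.1% and 20.6% of all tested genes were called in these directions. More than 2-fold changes numbered 634 up and 228 down, where 4.26% and 1.46% of all tested genes were so called. Rises over 4-fold numbered 254 and falls 14, and over 8-fold 148 and 0. The median called rise was 0.45 and the median called fall 0.32 on the log2 scale. The order of the 2 counts turned in other fits, with 3211 higher and 2812 lower genes under upper-quartile factors, 3707 and 3617 in the 4 KO libraries only, 2879 and 2466 with limma on log2(RPKM + 0.1), 2949 and 2533 with limma on log2(RPKM + 1), and 2951 and 2786 without WT DMSO replicate 1. Of the calls above 1589 rises and 1896 falls remained when each knockout library was left out in turn. Of 758 tested long noncoding RNAs 117 were higher and 44 lower, and of 13692 protein-coding genes 2575 were higher and 3182 lower. The other 81 members were not tested because too few libraries held enough of their reads. In bulk RNA, fewer cells of a kind and less RNA per cell cannot be told apart, which holds for every level below.

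MDM2 led the feedback genes of p53. Its level was 102 and 103 CPM in the DMSO libraries and 1081 and 1050 with Nutlin-3a, a rise of 3.38 (SE 0.05, adjusted p = 7.05e-19). Both treated libraries lay far above both controls, and the replicates nearly coincided. Of 15 tested feedback regulators 8 rose and 1 fell, with a median of 0.71 against -0.01 over all tested genes. TP53INP1, which promotes p53 phosphorylation and autophagy, went from 49.5 and 51.9 to 283 and 279 CPM (2.47, SE 0.05). PIDD1, the scaffold of a caspase-2 complex, went from 13.6 and 14.1 to 62.7 and 62.0 (2.17, SE 0.06). PPM1D, whose phosphatase WIP1 shuts off damage signalling, went from 87.1 and 88.4 to 265 and 259 (1.58, SE 0.05). RPS27L (2.09, SE 0.06) and the cyclin G1 gene CCNG1 (0.81, SE 0.06) rose too. CDKN2A, which encodes p16 and the MDM2 antagonist ARF, stood at 28.8, 30.6, 30.5 and 28.4 CPM and was not called (-0.01, SE 0.08, adjusted p = 0.925). TP73, the p53 relative, had 24 and 19 reads and then 40 and 30 (0.78, SE 0.33, adjusted p = 0.0759).

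**Figure D1:**
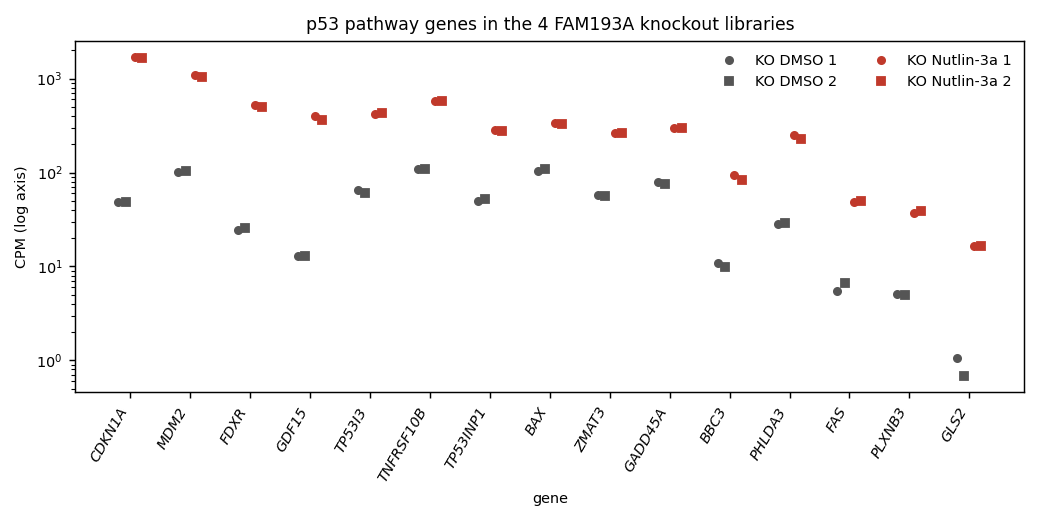
CPM on a log axis of 15 p53 pathway genes in the 4 knockout libraries, 1 point per library (grey DMSO, red Nutlin-3a). The Nutlin-3a points lie above the DMSO points for every gene drawn, as for CDKN1A with 1712 and 1653 against 48.6 and 48.1 CPM.

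Arrest genes rose in 11 of 17 tested cases, with 0 lower and a median of 1.34. CDKN1A went from 48.6 and 48.1 CPM to 1712 and 1653, and its mean RPKM from 18.6 to 663, the highest RPKM among the targets named here. ZMAT3, an RNA-binding protein that steers splicing, went from 57.3 and 56.4 to 264 and 267 CPM (2.22, SE 0.05). GADD45A, a stress sensor that acts on CDK1 and on DNA repair, went from 79.5 and 75.0 to 301 and 300 (1.96, SE 0.05). Replicates of these 3 genes lay close together and the groups far apart. BTG2, an antiproliferative cofactor of mRNA deadenylation, rose from 57.7 and 62.8 to 300.2 and 251 CPM (2.20, SE 0.07), and the stress kinase gene PLK3 from 4.78 and 4.59 to 22.6 and 23.7 (2.30, SE 0.09). The other 6 arrest genes were not called.

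Death genes rose in 18 of 21 tested cases and 1 fell, with a median of 1.35. FDXR, the mitochondrial ferredoxin reductase, went from 24.7 and 25.4 to 519 and 498 CPM (4.34, SE 0.06). Receptors at the cell surface moved together: FAS from 5.45 and 6.61 to 48.9 and 49.7 (3.03, SE 0.08), TNFRSF10B, which encodes the TRAIL receptor DR5, from 109 and 109 to 581 and 580 (2.41, SE 0.05), and TNFRSF10A, which encodes DR4, from 2.54 and 2.75 to 14.4 and 13.4 (2.39, SE 0.12). Pro-apoptotic genes of the BCL2 family covered a wide range. BBC3, which encodes PUMA, went from 10.8 and 9.99 to 94.5 and 83.1 CPM, BAX from 104 and 109 to 339 and 327, and PMAIP1, which encodes NOXA, from 90.8 and 96.5 to 175 and 161 (0.85, SE 0.05). APAF1, the core of the apoptosome, rose from 26.8 and 30.0 to 49.2 and 51.2 (0.82, SE 0.08). PHLDA3, a decoy that blocks AKT at the membrane, went from 28.2 and 28.9 to 254 and 227 CPM (3.08, SE 0.07). The member that fell was BID, by 0.21 on the log2 scale, and that call was lost without 1 knockout library.

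Of 25 tested targets in repair and metabolism 16 rose and 2 fell (median 0.80). C12orf5, the older symbol of the glycolysis brake TIGAR, rose from 22.9 and 23.3 to 117 and 113 CPM (2.32, SE 0.05). DDB2, which recognises ultraviolet lesions, rose from 19.1 and 18.0 to 109 and 106 (2.54, SE 0.06), and RRM2B, the p53-dependent ribonucleotide reductase subunit, from 31.9 and 31.5 to 137 and 131 (2.08, SE 0.05). The glutaminase gene GLS2 started near 1 CPM (1.06 and 0.67) and reached 16.5 and 16.3 (4.25, SE 0.15). SESN1, an mTORC1 restrainer, rose from 14.8 and 14.4 to 107 and 95.9 (2.80, SE 0.09). The nucleotide excision gene XPC (1.48, SE 0.05) and the lesion bypass polymerase gene POLH (1.59, SE 0.06) rose less.

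A further list of 43 tested p53 targets of varied function had 38 higher and 1 lower (median 1.37). GDF15, a stress cytokine, went from 12.9 in both DMSO libraries to 404 and 360 CPM (4.89, SE 0.08). CMBL, a hydrolase, went from 49.6 and 49.4 to 181 and 172 (1.83, SE 0.05), and PLXNB3, a semaphorin receptor, from 5.06 and 4.98 to 37.1 and 38.6 (2.91, SE 0.09). Secreted factors were among the risers: LIF went from 3.61 and 3.32 to 18.3 and 16.1 CPM (2.31, SE 0.11), the KIT ligand gene KITLG from 13.2 and 13.6 to 64.1 and 63.9 (2.25, SE 0.07), and the macrophage factor gene CSF1 from 4.02 and 4.57 to 15.2 and 13.6 (1.74, SE 0.11). TGFA, an EGF receptor ligand, went from 0.84 and 0.75 to 13.8 and 15.0 (4.17, SE 0.13).

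The steepest rises started from almost no reads. Among genes with a mean of at least 2 CPM over the 4 libraries and agreeing replicates, the 12 steepest were TRIM64B, PVRL4, GRIN2C, KDM4E, CYP4F3, ZSCAN4, INPP5D, RFPL4B, MUC19, TRIM43, CDKN1A and SLC52A1. PVRL4, the adhesion molecule nectin-4, had 11 and 8 reads under DMSO and 1069 and 1025 with Nutlin-3a (6.85, SE 0.15). INPP5D, which encodes the phosphatase SHIP1 of blood cells, had 59 and 58 reads and then 3546 and 3221 (5.93, SE 0.08). Such counts put both treated libraries far above both controls. ZSCAN4, KDM4E, TRIM43 and RFPL4B are known from the cleavage-stage embryo. ZSCAN4 had 8 and 7 reads and then 512 and 410, KDM4E 5 and 5 and then 330 and 300, TRIM43 6 and 12 and then 360 and 289, and RFPL4B 24 and 22 and then 1194 and 1047. TRIM64B, TRIM43 and the RFPL4 genes have near-identical copies among which reads can be split, so their single values are uncertain. SLC52A1, a riboflavin transporter gene, went from 7 and 5 reads to 182 and 177 (4.96, SE 0.28).

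Genes with at most 3 reads in both KO DMSO libraries together are given as ratios with exact 95% intervals for counting error alone. They were taken for having the most reads under Nutlin-3a. The intervals allow neither for that choice nor for spread between replicates. TREM2, the lipid receptor of microglia, had 0 and 1 reads and then 236 and 189, a ratio of 451 (80.4 to 17838). CYP4F2, a fatty acid hydroxylase, had 0 and 1 and then 207 and 203, a ratio of 435 (77.6 to 17210). DRAXIN, a repulsive axon guidance cue, had 2 and 1 and then 267 and 207, a ratio of 168 (57.0 to 815). UBASH3B had 2 and 0 and then 134 and 131, a ratio of 140 (38.5 to 1166), and the glutamate receptor subunit gene GRIN2C 1 and 2 and then 186 and 166, a ratio of 124 (42.2 to 606). The uncharacterised LOC102723373 had 0 reads under DMSO and 168 with Nutlin-3a over both libraries, at least 59.4-fold higher when the group is given the 3 reads that a count of 0 allows. In the other direction, GABRG1, a GABA receptor subunit gene, had 10 and 12 reads and then 0 and 0, at least 6.92-fold lower by the same bound, and it had too few reads to be tested.

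The long noncoding RNA LINC01021, named PURPL in RefSeq, a p53-induced transcript chosen after its values were seen, had 27 and 10 reads under DMSO and 427 and 342 with Nutlin-3a (4.45, SE 0.22, adjusted p = 2.32e-11). Its promoter window is printed because it is among the few that hold a full p53 consensus, a pair of 10-base half-sites with up to 13 bases between them, searched by name on both strands. The window runs from 250 bases before to 50 bases after the RefSeq start (GRCh38.p14, chr5:27472042-27472341, plus strand), and capitals mark the match, from 127 bases before the start.
LINC01021: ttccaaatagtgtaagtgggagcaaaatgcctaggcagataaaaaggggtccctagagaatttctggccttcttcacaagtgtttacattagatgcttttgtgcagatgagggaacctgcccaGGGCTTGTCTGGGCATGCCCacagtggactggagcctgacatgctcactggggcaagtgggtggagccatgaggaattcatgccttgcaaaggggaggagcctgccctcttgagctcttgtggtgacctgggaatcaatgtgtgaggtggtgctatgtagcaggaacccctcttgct
Of 27305 RefSeq promoter windows of that length 8 held such a match, or 0.0293%. Of those 8 windows 4 belonged to tested members. These were LINC01021, PTCHD4 and MCC, called higher, and DYNC2H1, called lower, and the calls of MCC and DYNC2H1 were lost without 1 knockout library. PTCHD4, a p53 target of the arrest list, had 98 and 133 reads and then 235 and 184 (0.94, SE 0.16).

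Of 42 tested DNA replication genes 40 fell and 1 rose, with a median of -1.06. All 51 tested kinetochore and spindle genes fell (median -0.96), as did 34 of 35 genes of mitotic entry and exit (median -0.83) and 29 of 31 genes of homologous recombination and the Fanconi pathway (median -1.07). Of 26 G1/S regulators 22 fell and 2 rose (median -0.90). Background calls of falls stood at 20.6% of all tested genes. The medians kept their sign with each scaling and in every alternative fit.

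The 12 steepest falls with agreeing replicates included E2F8, E2F2, MYBL2, ZNF367, ATAD2, CLSPN, CDC6, TK1, MYB, UHRF1 and E2F1. E2F1, the activator of S-phase genes, went from 121 and 126 to 30.1 and 33.3 CPM (-1.96, SE 0.06). MYBL2, the B-MYB subunit of the complex that drives mitotic genes, went from 151 and 152 to 29.5 and 33.5 (-2.27, SE 0.06), and CDC6, which loads the MCM helicase at origins, from 136 and 134 to 29.8 and 33.3 (-2.10, SE 0.06). In all 3 both treated libraries lay far below both controls. UHRF1, which copies DNA methylation, fell from 201 and 204 to 48.0 and 55.9 (-1.97, SE 0.06) and TK1, the thymidine kinase, from 208 and 205 to 49.1 and 51.4 (-2.04, SE 0.06). E2F8, a repressor E2F, fell from 227 and 270 reads to 41 and 21 (-2.92, SE 0.23), while its close relative E2F7, a direct p53 target, rose from 37.3 and 35.0 to 85.5 and 87.5 CPM (1.26, SE 0.06).

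A few replication genes did not follow. PCNA, the sliding clamp, was at 242, 244, 257 and 246 CPM (0.05, SE 0.05, adjusted p = 0.475). LIG1, the ligase that seals Okazaki fragments, rose from 73.4 and 72.9 to 90.4 and 84.0 (0.25, SE 0.05, adjusted p = 0.000626). TYMS, thymidylate synthase, went from 245 and 256 to 276 and 284 (0.16, SE 0.05, adjusted p = 0.0255), a call lost without 1 knockout library. In the mitotic list FZR1, an activator of the anaphase-promoting complex, was not called (44.2, 51.1, 42.8 and 41.2 CPM). Cyclin D1 (CCND1), at 422, 405, 419 and 457 CPM, was not called either, whereas cyclin E1 (CCNE1) fell from 20.9 and 20.9 to 12.3 and 13.4 (-0.71, SE 0.09).

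Mitotic genes fell by a narrower range than S-phase genes, from -1.37 to -0.27 in the kinetochore list against -2.11 to 0.25 in the replication list. BUB1B, the spindle checkpoint kinase, went from 126 and 132 to 54.7 and 58.5 CPM (-1.19, SE 0.05), MAD2L1, its partner in the checkpoint, from 153 and 164 to 65.9 and 71.0 (-1.21, SE 0.05), and the bipolar spindle motor gene KIF11 from 117 and 129 to 52.1 and 54.9 (-1.20, SE 0.06). The master mitotic kinase gene CDK1 fell less, from 146 and 158 to 106 and 113 (-0.47, SE 0.06), as did CCNB1 (-0.69, SE 0.05) and PLK1 (-0.65, SE 0.06). PKMYT1, which holds CDK1 inactive, fell most in its list, from 47.9 and 47.6 to 15.1 and 14.8 (-1.67, SE 0.07). Of the recombination genes BRCA1 went from 141 and 142 to 42.4 and 45.6 (-1.68, SE 0.05) and the exonuclease gene EXO1 from 62.9 and 61.5 to 14.9 and 17.5 (-1.94, SE 0.07).

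Promoter windows of 6 fallen genes are printed to show the 2 kinds of element that set S-phase from mitotic genes. They are RefSeq sequences (GRCh38.p14), 250 bases before to 50 after the start, in the direction of the gene. Capitals mark E2F-type letters (TTTGGCGC, TTTCGCGC, TTTCCCGC or TTTGCCGC, or their reverse complements) in E2F1 (chr20:33686336-33686635, minus strand), CDC6 (chr17:40287629-40287928, plus strand) and MCM6, a subunit of the replicative helicase (chr2:135876394-135876693, minus strand). In BUB1B (chr15:40160819-40161118, plus strand), KIF11 (chr10:92592880-92593179, plus strand) and the proliferation marker MKI67 (chr10:128126374-128126673, minus strand) they mark the CHR letters TTTGAA or their reverse complement.
E2F1: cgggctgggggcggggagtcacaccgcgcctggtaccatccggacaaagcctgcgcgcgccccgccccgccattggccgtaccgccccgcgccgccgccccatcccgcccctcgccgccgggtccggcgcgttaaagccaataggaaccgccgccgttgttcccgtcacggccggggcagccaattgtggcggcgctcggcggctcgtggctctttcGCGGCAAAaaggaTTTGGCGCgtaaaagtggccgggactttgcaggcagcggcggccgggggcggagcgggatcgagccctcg
CDC6: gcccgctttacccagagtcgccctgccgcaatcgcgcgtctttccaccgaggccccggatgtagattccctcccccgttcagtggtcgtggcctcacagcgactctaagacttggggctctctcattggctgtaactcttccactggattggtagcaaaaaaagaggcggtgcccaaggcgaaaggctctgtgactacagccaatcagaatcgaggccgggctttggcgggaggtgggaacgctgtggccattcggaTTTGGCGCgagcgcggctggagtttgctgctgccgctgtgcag
MCM6: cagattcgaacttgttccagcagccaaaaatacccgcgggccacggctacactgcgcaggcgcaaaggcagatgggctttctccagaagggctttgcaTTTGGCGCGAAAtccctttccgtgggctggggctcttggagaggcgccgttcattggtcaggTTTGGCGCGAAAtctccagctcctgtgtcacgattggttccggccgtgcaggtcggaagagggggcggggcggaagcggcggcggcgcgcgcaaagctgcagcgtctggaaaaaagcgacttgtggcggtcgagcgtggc
BUB1B: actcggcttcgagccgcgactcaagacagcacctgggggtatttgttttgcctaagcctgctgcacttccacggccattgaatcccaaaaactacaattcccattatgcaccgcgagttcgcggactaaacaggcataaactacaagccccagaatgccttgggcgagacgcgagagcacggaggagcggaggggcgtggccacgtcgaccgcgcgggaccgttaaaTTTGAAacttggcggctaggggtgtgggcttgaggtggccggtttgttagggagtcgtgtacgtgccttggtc
KIF11: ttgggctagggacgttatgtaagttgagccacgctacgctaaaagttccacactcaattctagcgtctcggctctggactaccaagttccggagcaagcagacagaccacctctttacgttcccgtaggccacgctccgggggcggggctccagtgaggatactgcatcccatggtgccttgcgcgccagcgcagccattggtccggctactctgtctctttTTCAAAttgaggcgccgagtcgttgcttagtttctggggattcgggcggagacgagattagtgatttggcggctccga
MKI67: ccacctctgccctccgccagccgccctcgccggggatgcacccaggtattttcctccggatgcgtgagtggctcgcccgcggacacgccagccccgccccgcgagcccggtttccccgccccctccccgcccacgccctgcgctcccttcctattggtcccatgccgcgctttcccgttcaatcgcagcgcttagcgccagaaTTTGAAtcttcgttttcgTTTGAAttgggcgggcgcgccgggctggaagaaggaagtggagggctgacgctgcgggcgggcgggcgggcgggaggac
MCM6 has 4 overlapping matches in 2 stretches, E2F1 has 2 matches and MKI67 has 2. The CHR letters of BUB1B and KIF11 begin 23 and 28 bases before the start.

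Across lists the letters were shared out in the same way. E2F-type letters were in 17 of 36 replication promoters with a window (47.2%), in 5 of 41 kinetochore promoters (12.2%) and in 1 of 30 promoters of mitotic entry and exit (3.33%), against 3.33% of all 27305 windows. CHR letters were in 27 of 41 kinetochore (65.9%) and 21 of 30 mitotic promoters (70.0%), in 1 of 36 replication promoters (2.78%), and in 15.4% of all windows. Homologous recombination promoters held E2F-type letters in 18.5% and CHR letters in 11.1% of 27 cases. E2F-type letters were also present once each in the windows of PCNA, LIG1 and TYMS, which did not fall, and CHR letters in that of FZR1. A match is a description, not a bound site.

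**Figure D2:**
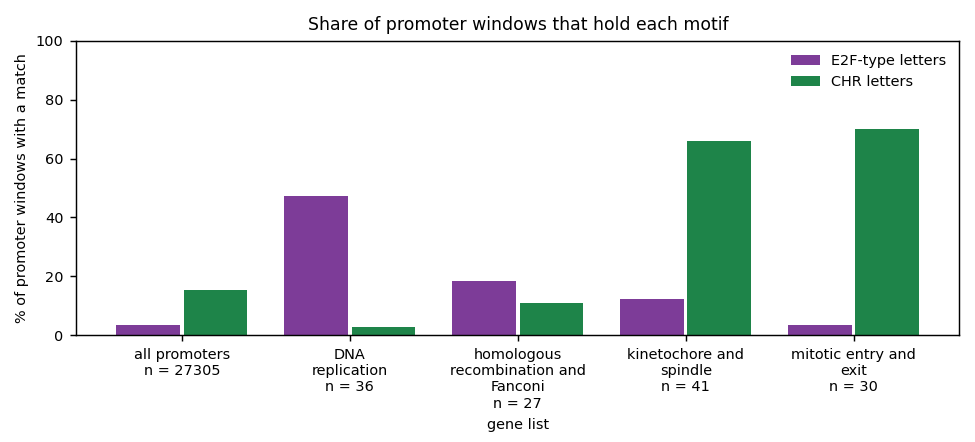
Percent of promoter windows with at least 1 match to E2F-type letters (purple) or CHR letters (green), for all 27305 windows and for 4 gene lists, with the number of windows under each. E2F-type letters peak in DNA replication genes at 47.2% and CHR letters in genes of mitotic entry and exit at 70.0%.

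Of 26 tested adrenergic neuroblastoma genes 6 rose and 5 fell, with a median of 0.04, close to the 18.1% and 20.6% of all tested genes. HAND2 was at 838, 855, 858 and 816 CPM and was not called (-0.02, SE 0.05). GATA3 rose from 48.4 and 45.9 to 63.7 and 64.8 (0.45, SE 0.06) while its sister factor GATA2 fell from 52.4 and 53.4 to 40.3 and 38.9 (-0.42, SE 0.06). CHGA, a secretory granule protein, fell from 31.1 and 32.1 to 24.0 and 19.9 (-0.52, SE 0.10). Of 31 genes of the mesenchymal neuroblastoma state 13 fell and 7 rose (median -0.19). THY1, a surface glycoprotein, fell from 279 and 271 to 183 and 182 (-0.59, SE 0.05) and the PDGF receptor gene PDGFRB from 109 and 106 to 70.5 and 75.2 (-0.56, SE 0.05). The AP-1 gene FOSL1 went the other way, from 8.91 and 6.82 to 38.8 and 36.1 (2.26, SE 0.12). MYCN fell from 2434 and 2471 to 2005 and 1898 CPM. In the MYC network 5 of 17 genes rose, or 3 without KO DMSO replicate 1 or KO Nutlin-3a replicate 1, and 4 fell, with the MAX partner gene MXD3 lower (-0.98, SE 0.08) and the glucose-sensing factor gene MLXIPL higher (5 and 3 reads, then 28 and 31).

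Of 26 tested synapse and exocytosis genes 9 rose and 1 fell (median 0.23), although 5 of the 9 kept the call without each knockout library. SYT4, a vesicle calcium sensor relative, rose from 8.52 and 9.86 to 20.1 and 17.2 CPM (1.02, SE 0.11), UNC13B, a vesicle priming factor, from 47.1 and 48.7 to 64.2 and 66.1 (0.44, SE 0.06), and the vesicle protein gene SV2A fell from 139 and 139 to 116 and 114 (-0.28, SE 0.05). Among 28 genes of neurofilaments, cytoskeleton and axon 10 rose and 8 fell, where 18.1% and 20.6% of all tested genes did. The 10 became 5 without KO Nutlin-3a replicate 1 and 6 without KO DMSO replicate 2, and the 9 synapse genes became 5 without KO Nutlin-3a replicate 1. The neurofilament gene NEFL rose from 4.81 and 4.44 to 32.7 and 34.3 and the axonal adhesion gene CNTN2 from 1.23 and 1.06 to 12.0 and 13.7 (3.48, SE 0.18). STMN1, a microtubule destabiliser of dividing cells, fell from 273 and 284 to 151 and 156 (-0.86, SE 0.05), and GAP43, a growth cone protein, from 10.1 and 9.05 to 4.40 and 4.54 (-1.10, SE 0.14). Of 25 voltage-gated channel genes 6 rose and 2 fell. The sodium channel gene SCN2A went from 49 and 33 reads to 229 and 253 (2.64, SE 0.20), SCN3B from 99 and 112 to 305 and 278 (1.55, SE 0.15), and SCN4B from 8 and 3 to 135 and 126 (4.62, SE 0.32).

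Of 40 axon guidance genes 14 rose and 11 fell, where 18.1% and 20.6% of all tested genes did, and the 11 became 7 without KO DMSO replicate 2. SEMA3B, a secreted semaphorin and known p53 target, rose from 44.4 and 45.2 to 105 and 113 CPM (1.29, SE 0.05), the receptor gene NRP2 from 39.4 and 38.5 to 68.5 and 73.3 (0.86, SE 0.06) and netrin-1 (NTN1) from 35.0 and 36.0 to 66.1 and 59.9 (0.83, SE 0.08). Another secreted semaphorin, SEMA3A, fell from 11.0 and 11.8 to 5.73 and 6.58 (-0.89, SE 0.12). Of 17 Eph receptors and ephrins 4 rose and 3 fell, with EPHA2, a known p53 target, from 59.8 and 59.5 to 146 and 153 (1.33, SE 0.05).

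In the NOTCH pathway 7 of 26 genes rose and 6 fell, with a median of 0.05 and a lowest value of -0.89. Of all tested genes 18.1% rose and 20.6% fell, shares to be read beside each list here. The NOTCH risers included both Jagged ligands and a receptor. JAG1 went from 4.05 and 4.18 to 13.4 and 14.3 CPM (1.75, SE 0.11), JAG2 from 19.6 and 19.8 to 53.8 and 51.6 (1.42, SE 0.06) and NOTCH1 from 167 and 178 to 434 and 416 (1.30, SE 0.08). WNT genes were split 8 higher to 8 lower of 38, near the 18.1% and 20.6% of all tested genes, with the receptor gene LGR5 higher (0.55, SE 0.05) and FZD7 lower (-0.48, SE 0.05). TGF-beta and BMP genes were split 9 to 10 of 46, again near those shares, with TGFB3 higher (13.7 and 13.6, then 25.4 and 24.4 CPM) and the inhibitor SMAD6 lower (-0.46, SE 0.07). With 1 knockout library left out, the WNT counts were 5 to 8 in each direction, and those of TGF-beta and BMP 6 to 8 higher and 6 to 9 lower, both lowest for falls without KO DMSO replicate 2. Among 26 YAP targets and actin genes 10 rose, or 5 without KO DMSO replicate 2, and 7 fell, with smooth muscle actin ACTA2 from 18.3 and 17.4 to 70.2 and 68.3 (1.96, SE 0.07) and TAGLN, another contractile gene, from 73.7 and 66.6 to 46.6 and 51.5 (-0.52, SE 0.07). Of 24 phosphodiesterases and adenylyl cyclases 6 rose and 4 fell, the 4 becoming 2 without KO DMSO replicate 1 or KO Nutlin-3a replicate 2. Immediate early genes were mostly higher, 22 of 30 with 1 lower (median 0.63). IER5 rose from 66.9 and 68.8 to 223 and 198 (1.63, SE 0.06), the synaptic gene ARC from 12.6 and 13.3 to 53.6 and 47.2 (1.96, SE 0.08) and the MAP kinase phosphatase gene DUSP4 from 55.5 and 53.5 to 130 and 125 (1.23, SE 0.06). FOS had 151 and 205 reads and then 497 and 354 (1.34, SE 0.15).

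**Figure D3:**
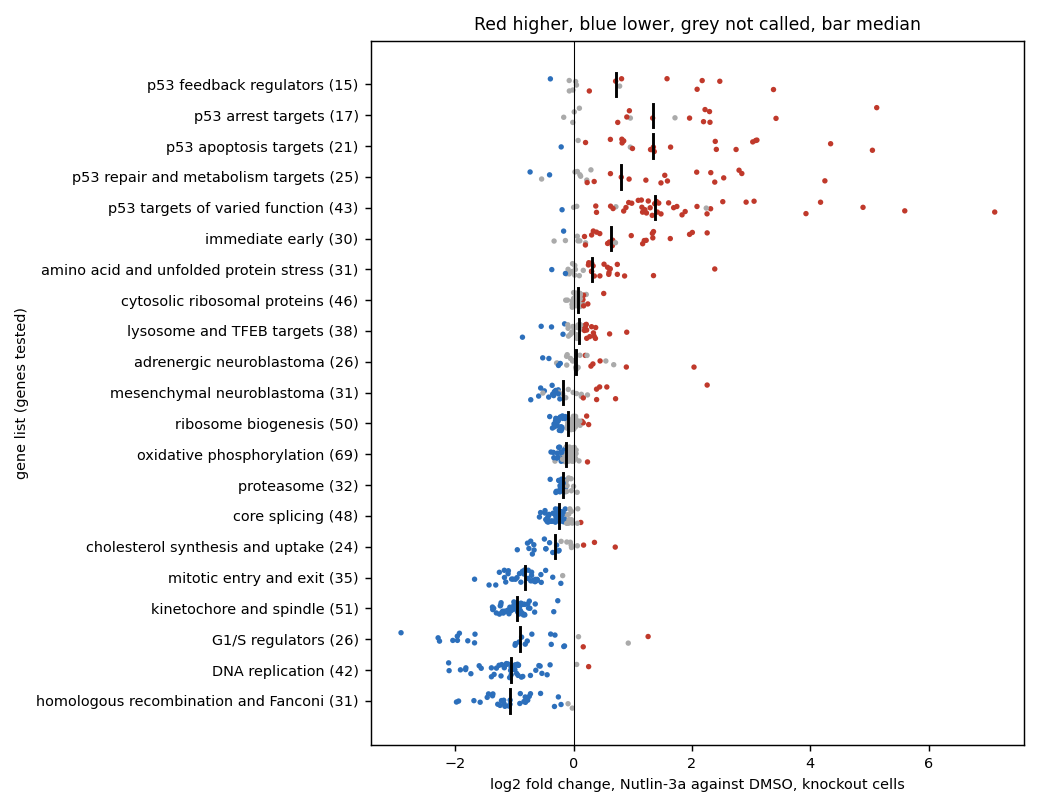
Log2 fold change in knockout cells of each tested gene of 21 gene lists, 1 point per gene (red called higher, blue called lower, grey not called), with the median as a bar. The p53 target lists lie to the right, with medians from 0.71 to 1.37, and the 5 cell cycle lists to the left, with medians from -1.07 to -0.83.

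Of 48 core splicing genes 35 fell and 1 rose (median -0.25), such as SRSF2, from 629 and 629 to 455 and 445 CPM (-0.48, SE 0.05), and HNRNPA2B1, from 2200.3 and 2138 to 1537 and 1593 (-0.47, SE 0.05). Proteasome genes fell in 21 of 32 cases with 0 higher (median -0.18), and that count ranged from 13 to 25 over the alternative fits with all libraries. It was 10 without KO Nutlin-3a replicate 1, 12 without KO DMSO replicate 1, 14 without KO DMSO replicate 2 and 18 without KO Nutlin-3a replicate 2, and 9 genes kept the call in all 4 of these fits. The ATPase subunit gene PSMC3 fell from 172 and 174 to 131 and 132 (-0.40, SE 0.05). Of 50 genes that build ribosomes 21 fell and 4 rose, the 4 becoming 2 without KO DMSO replicate 1, KO DMSO replicate 2 or KO Nutlin-3a replicate 1 (median -0.09), such as nucleolin (NCL), from 1324 and 1332 to 1048 and 1100 (-0.31, SE 0.05), and UBTF, the RNA polymerase I factor (-0.36, SE 0.04). Cytosolic ribosomal protein genes rose in 6 of 46 cases with 0 lower (median 0.08), where 18.1% of all tested genes rose. That count reached 23 in another fit and was 2 without KO DMSO replicate 1, KO DMSO replicate 2 or KO Nutlin-3a replicate 2. RPS19 was the steepest, from 907 and 938 to 1307 and 1319 (0.51, SE 0.05). Every list in this paragraph is to be read beside the 20.6% of all tested genes called lower and the 18.1% called higher. Of 62 mitochondrial ribosome genes 21 fell and 4 rose, and oxidative phosphorylation genes fell in 20 of 69 and rose in 1. With 1 knockout library left out, those counts of falls ranged from 6 to 16 (lowest without KO Nutlin-3a replicate 1) and from 9 to 24 (lowest without KO DMSO replicate 2). Of 26 chaperonin and heat shock genes 12 fell and 3 rose, or 7 to 10 and 1 to 3 with 1 knockout library left out (7 falls without KO DMSO replicate 1, KO DMSO replicate 2 or KO Nutlin-3a replicate 1), with HSPD1 lower (-0.23, SE 0.05). The 3 variant histone genes that fell were H2AFX, H2AFZ and H2AFV, and 2 of 19 histone genes rose.

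Of 31 genes of amino acid and unfolded protein stress 19 rose and 2 fell (median 0.30), where 18.1% and 20.6% of all tested genes did. SESN2, a leucine sensor, went from 6.57 and 8.56 to 41.5 and 37.7 CPM (2.38, SE 0.10), the cystine transporter gene SLC7A11 from 42.9 and 40.0 to 76.4 and 74.1 (0.86, SE 0.06) and asparagine synthetase (ASNS) from 110 and 112 to 176 and 154 (0.57, SE 0.06). The hub factor ATF4 rose from 370 and 376 to 461 and 460 (0.30, SE 0.05), and its partner gene DDIT3, which encodes CHOP, from 17.2 and 17.5 to 30.5 and 27.3 (0.74, SE 0.08). HSPA5, the chaperone BiP of the endoplasmic reticulum, was at 613, 602, 620 and 621 and was not called. Of 20 cytosolic tRNA synthetase genes 8 rose and 2 fell, led by seryl-tRNA synthetase (SARS), from 86.5 and 81.5 to 147 and 138 (0.76, SE 0.05).

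Cholesterol genes were lower in 15 of 24 cases and higher in 3 (median -0.32). Of all tested genes 20.6% were called lower and 18.1% higher, to be read beside each list here. The acetyl transferase gene ACAT2 fell from 75.1 and 74.0 to 37.9 and 39.3 CPM (-0.95, SE 0.05) and SQLE, the rate-controlling epoxidase, from 127 and 130 to 75.5 and 82.7 (-0.70, SE 0.05). Of 19 fatty acid genes 8 fell and 4 rose. Glycolysis genes fell in 11 of 26 and rose in 5, with LDHA lower (430 and 428, then 299.7 and 304) and the liver-type phosphofructokinase PFKL higher (56.0 and 61.6, then 109 and 107). Of 29 nucleotide and one-carbon genes 18 fell and 4 rose. Of 38 lysosome genes 15 rose and 5 fell, the 5 becoming 3 without KO DMSO replicate 2, among them cathepsin D (CTSD; 0.37, SE 0.05) and alpha-galactosidase (GLA; -0.86, SE 0.08). Autophagy genes rose in 9 of 34 and fell in 2, with the p53 target DRAM1 from 11.0 and 9.44 to 74.2 and 72.2 (2.84, SE 0.07).

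The peptide transporter gene TAP1 rose from 7.29 and 6.17 to 26.0 and 25.8 CPM (1.94, SE 0.08), and the MHC class I gene HLA-B from 7.10 and 7.94 to 29.7 and 28.3 (1.95, SE 0.08), although HLA genes share reads with one another. In the same list of 18 genes 3 rose and 8 fell, and B2M, the common light chain, went from 687 and 679 to 567 and 562 (-0.28, SE 0.05). Of 37 interferon-stimulated genes 12 fell and 6 rose, where 20.6% and 18.1% of all tested genes did. Rises in this list and in the MHC class I list were near the latter share. OAS3 had 317 and 311 reads and then 146 and 126 (-1.12, SE 0.12). TRIM22, a known p53 target, rose from 14 and 10 reads to 129 and 116 (3.42, SE 0.25), and TMEM173, which encodes STING, from 19.6 and 18.5 to 28.3 and 30.3 CPM (0.62, SE 0.07).

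The same treatment of WT cells asks how far the knockout cells' answer differs. The difference of the 2 log2 fold changes was called for 27.5% of tested genes. Among the 2826 members that rose in knockout cells it was smaller for 926 and larger for 197, and their median was 0.45 in knockout against 0.64 in WT cells. Among the 3269 members that fell it was larger, that is less negative, for 1268 and smaller for 223, with medians of -0.32 and -0.49. Both counts use the knockout libraries that also chose the members. WT Nutlin-3a replicates differed most from each other, with a chi-square per gene of 9.26 against 4.03 in KO Nutlin-3a.

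**Figure D4:**
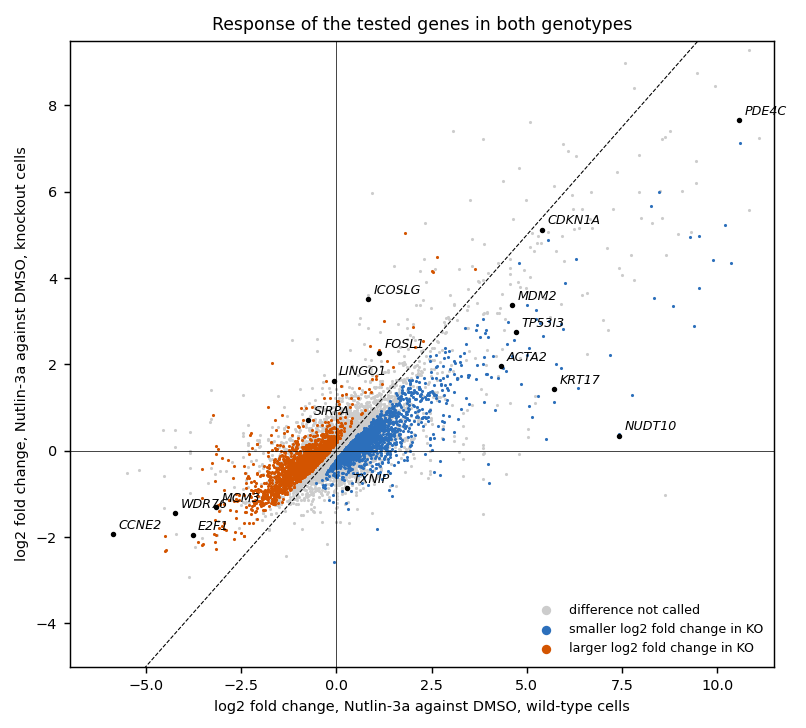
Log2 fold change with Nutlin-3a in wild-type (x) and knockout (y) cells, 1 point per tested member, coloured by whether the difference was called, with named genes as black points. The dashed line marks equal responses. Most named cell cycle genes lie above it on the negative side, such as CCNE2 at -5.87 and -1.93 on the 2 axes.

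CDKN1A, TP53I3, MDM2 and TP53INP1 rose less in knockout cells. MDM2 reached 1081 and 1050 CPM there against 2622 and 2772 in WT cells, from 102 and 103 against 113 and 108 (difference -1.23, SE 0.07, adjusted p = 8.19e-10). TP53I3, a quinone oxidoreductase, went from 65.1 and 61.3 to 420 and 427 against 34.3 and 33.8 to 906 and 880 (difference -1.97, SE 0.07). TP53INP1 started higher in knockout cells (49.5 and 51.9 against 18.1 and 19.3) and ended lower (283 and 279 against 404 and 438), a difference of -2.02 (SE 0.08). For CDKN1A the difference was -0.27 (SE 0.07, adjusted p = 0.00942), a call lost without WT DMSO replicate 1 (adjusted p = 0.0573) or KO DMSO replicate 1 (adjusted p = 0.0605). BAX (0.02, SE 0.08, adjusted p = 0.871) and BBC3 (0.16, SE 0.11, adjusted p = 0.31) gave no call. TNFRSF10B rose more in knockout cells (difference 0.35, SE 0.06), from DMSO levels of 109 and 109 against 200.4 and 202.

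Among cell cycle genes the difference was called larger for 40 of 42 replication, 45 of 51 kinetochore, 31 of 35 mitotic, 24 of 31 recombination and 19 of 26 G1/S genes, against 14.2% of all tested genes. CCNE2, which encodes cyclin E2, fell from 20.9 and 22.5 to 5.40 and 6.01 CPM in knockout cells, while in WT cells it fell from 28.7 and 30.0 to 0.53 and 0.47 (difference 3.94, SE 0.21). WDR76, a chromatin protein, ended at 25.9 and 25.3 against 3.03 and 3.41 (2.79, SE 0.11), MYB at 1.82 and 2.13 against 0.40 and 0.43 (2.51, SE 0.30), and the helicase subunit gene MCM3 at 117 and 125 against 36.5 and 39.6 (1.84, SE 0.07). E2F2 (2.18, SE 0.36) differed in the same direction, although its DMSO levels were 15.1 and 14.5 in knockout against 4.34 and 4.21 in WT cells. That difference turned to -0.48 (adjusted p = 0.00423) with limma on log2(RPKM + 1) and was not called at 0.64 (0.0602) with limma on log2(RPKM + 0.1). NXPH2, a neurexin ligand, and RHBDL3, a rhomboid-like protease, also fell less (2.06, SE 0.20, and 1.90, SE 0.47, the second lost without WT Nutlin-3a replicate 2 at an adjusted p of 0.0586), and ICOSLG, a T cell costimulator, rose more (17 and 12 reads, then 170 and 146, difference 2.68, SE 0.39, not called at 0.32 with limma on log2(RPKM + 1)).

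**Figure D5:**
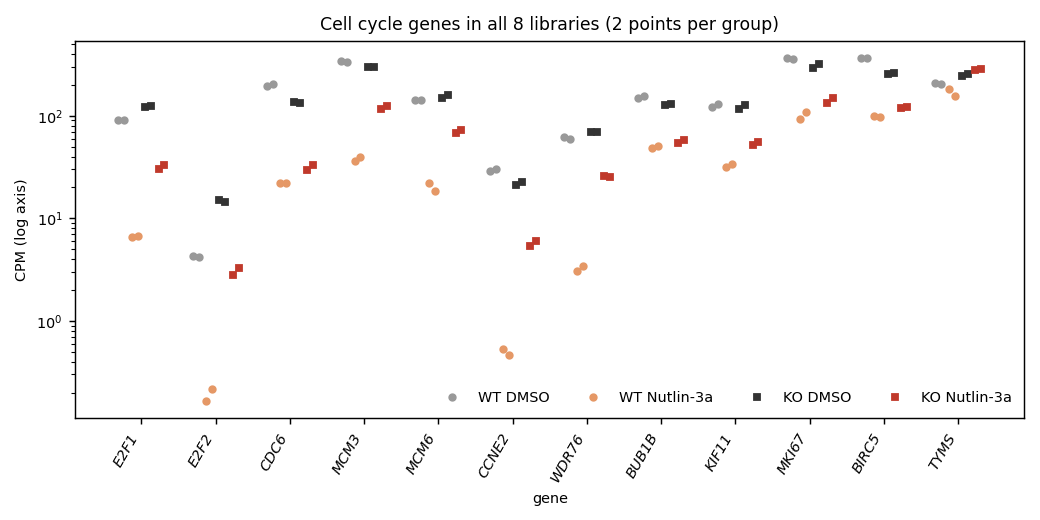
CPM on a log axis of 12 cell cycle genes in all 8 libraries (grey WT DMSO, orange WT Nutlin-3a, black KO DMSO, red KO Nutlin-3a). For CCNE2 the KO Nutlin-3a points are 5.40 and 6.01 and the WT Nutlin-3a points 0.53 and 0.47.

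The 8 most negative differences were those of NUDT10, MBD3L2, TRIM43B, TRIM43, RFPL4A, SLC52A1, KRT17 and CSGALNACT1. NUDT10, a phosphohydrolase, had 231 and 286 reads in untreated knockout cells and 312 and 307 in treated ones, but 0 in both WT DMSO libraries. Its rise in knockout cells (0.35, SE 0.13, adjusted p = 0.0492) was lost without 1 knockout library. MBD3L2, TRIM43B, TRIM43 and RFPL4A were also at 0 reads in WT DMSO, so the fitted differences of these 5 genes depend on the prior count and are no measure of size. With limma on log2(RPKM + 1) the differences of TRIM43, TRIM43B and RFPL4A turned to called positive values of 0.70, 0.44 and 0.88, and those of NUDT10 and MBD3L2 lost the call. SLC52A1 had 1 read in WT DMSO replicate 2 and 0 in the other. KRT17, a basal keratin, went from 5.31 and 4.49 to 13.4 and 12.8 CPM in knockout cells and from 0.46 and 0.07 to 15.9 and 12.9 in WT cells (difference -4.29, SE 0.38). CSGALNACT1, which starts chondroitin chains, ended alike at 5.10 and 3.91 against 4.75 and 4.89, from 2.15 and 1.63 against 0.10 and 0.14 (difference -4.04, SE 0.45).

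Opposite calls were rare, with 130 members called in both genotypes in opposite directions, 49 higher and 81 lower in knockout cells, and 39 of the 130 knockout calls held without each knockout library. The genes given here were chosen after their values were seen. TXNIP, a glucose-responsive brake on glucose uptake, fell in knockout cells from 207 and 206 to 121 and 105 CPM (-0.87, SE 0.07) and rose in WT cells from 64.8 and 56.0 to 71.9 and 75.9, a difference of -1.16 (SE 0.10). CCKAR, a cholecystokinin receptor gene, gave a difference of -1.13 (SE 0.17) and IGF1R, the IGF receptor gene, of -0.82 (SE 0.08), both lower in knockout and higher in WT cells. SIRPA, an inhibitory receptor of myeloid cells, rose from 8.36 and 10.8 to 15.7 and 15.7 in knockout cells and fell from 4.96 and 5.65 to 3.07 and 3.31 in WT cells (difference 1.45, SE 0.20). The granin gene SCG2 (0.63, SE 0.09) and ID4, an inhibitor of bHLH factors (0.77, SE 0.08), rose in knockout and fell in WT cells. TH, at 9.70 and 10.9 and then 12.4 and 12.9 CPM in knockout cells, and 477 and 480 and then 245 and 228 in WT cells, gave a difference of 1.31 (SE 0.09), but its rise in knockout cells was lost without 1 library.

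A further 231 members were called in knockout cells, not called in WT cells, and called for the difference, 108 higher and 123 lower. Of these 231 knockout calls 120 held without each knockout library. LINGO1, a Nogo receptor partner, went from 2.85 and 3.81 to 10.6 and 10.0 CPM in knockout cells and stood at 18.5, 17.7, 16.9 and 17.5 in WT cells (difference 1.70, SE 0.16). The folate enzyme gene MTHFD1L (0.67, SE 0.05, difference 0.63, SE 0.07), ASNS (difference 0.46, SE 0.08), VEGFA (0.58, SE 0.06, difference 0.49, SE 0.09), TGFB3 (difference 0.79, SE 0.16) and LGR5 (difference 0.60, SE 0.07) followed the same pattern upward. PDGFRB followed it downward (difference -0.60, SE 0.07), with 189, 180, 184 and 197 CPM in WT cells. FOSL1 rose in both genotypes and more in knockout cells (difference 1.13, SE 0.15), from 8.91 and 6.82 against 47.2 and 52.5 CPM under DMSO.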

How the data were processed

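Strand-specific poly(A) libraries were made from TRI reagent extracts, per the labels' protocols. TopHat2 2.1.1 with Bowtie2 2.2.9.0 and HTSeq 0.8.0 are named in the submitters' processing notes, beside FastQC 0.11.5, Picard 2.9.4, SAMtools 1.5 and bcl2fastq, with the build GRCh37 (hg19). For gene annotation and strand option the sources used here give nothing. Reads of overlapping, antisense or duplicated genes may therefore be mixed. The authors deposited whole read counts per gene and RPKM values. The RPKM columns equal the deposited count divided by gene length and by the total count of the library.

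From the counts, edgeR 4.0.16 (R 4.3.3) fitted 4 group means over 8 libraries (TMM scaling, filterByExpr, robust quasi-likelihood test, 4 residual degrees of freedom), for the knockout response, the WT response and their difference. On simulated data of 15582 genes it recovered 89 of 100 genes changed 1.5-fold and 100 of 100 changed 2-fold for the knockout response. For the difference it recovered 80 and 92. The changed genes had an average log2 CPM of at least 1, and all others were unchanged. Of the unchanged genes 13 were called for the knockout response and 16 for the difference. Recovery of genes with fewer reads, or with as many changed genes as here, was not tested. Alternatives used DESeq2 1.42.0, limma 3.58.1, other scalings and filters, and each library left out. Replicates differed by more than counting noise, so each library counted once. Deviations of same-numbered libraries from their group means had correlations from -0.03 to 0.14. The highest was between WT DMSO and KO Nutlin-3a, whose replicate 2 libraries both held the reads of unrelated, mostly intestinal genes. Its cause was not tested.

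The members and 47 gene lists were chosen with earlier results of these data known. The named genes are fixed landmarks (FAM193A, MDM2, CDKN1A, BAX, BBC3, MYCN), the 12 steepest called rises and falls whose mean log2 CPM reached 1, with replicates within 2-fold and no overlap, up to 3 called genes per list, the 8 largest differences each way, and genes near 0 reads or with discordant replicates. Further genes, such as FAS, NOTCH1, LIF, PCNA and TXNIP, were added after their values were seen, and some that the rule takes were left out for length or are not reported here. Promoter sequences and their coordinates are RefSeq's (GRCh38.p14), matched by symbol for 11766 of 15390 tested members. That is under 80%, so shares are given only for lists with at least 80% matched.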

Additional observations from a re-analysis of the deposited data

Results flagged for a closer look

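The responses of the 2 genotypes differed by the test of the difference itself for 2253 genes with a larger and 2120 with a smaller log2 fold change in knockout cells. The values below are differences, knockout minus WT, on the log2 scale. Genes that rose less in knockout cells were MDM2 (-1.23), TP53INP1 (-2.02), TP53I3 (-1.97), CDKN1A (-0.27), KRT17 (-4.29), CSGALNACT1 (-4.04) and SLC52A1 (-4.33). KRT17, CSGALNACT1 and SLC52A1 stood near 0 in WT DMSO, so the size of their differences is uncertain. The values of NUDT10 (-7.08), MBD3L2 (-5.99), TRIM43B (-5.46), TRIM43 (-4.97) and RFPL4A (-4.81) rest on 0 reads in WT DMSO and depend on the prior count. Cell cycle genes that fell less were CCNE2 (3.94), WDR76 (2.79), MYB (2.51), E2F2 (2.18) and MCM3 (1.84), and NXPH2 (2.06) and RHBDL3 (1.90) did so too. ICOSLG (2.68), FOSL1 (1.13) and TNFRSF10B (0.35) rose more in knockout cells. Called only in the knockout response were LINGO1 (1.70), TGFB3 (0.79), MTHFD1L (0.63), LGR5 (0.60), VEGFA (0.49), ASNS (0.46) and PDGFRB (-0.60). Opposite calls were those of SIRPA (1.45), TH (1.31), ID4 (0.77), SCG2 (0.63), IGF1R (-0.82), CCKAR (-1.13) and TXNIP (-1.16). Groups of 2 libraries were too small for a test of single outlying libraries.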

How the results depend on the processing

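Over the alternatives with all libraries, the knockout response gave 2059 to 3707 higher and 2393 to 3617 lower genes. The counts over 2-fold held within 1.5 times except with limma on log2(RPKM + 1), which gave 267 higher and 83 lower genes, since a pseudocount of 1 shrinks low genes. At an adjusted p under 0.01 the difference between genotypes was larger for 1437 and smaller for 1307 genes. Leaving out 1 library at a time gave 1922 to 3660 higher and 2289 to 3934 lower genes, 596 to 734 and 183 to 251 of them over 2-fold, and differences that were larger for 1600 to 2613 and smaller for 1459 to 2724 genes. The fit with a replicate block gave 2887 higher and 3257 lower genes, 699 and 234 over 2-fold, and differences larger for 2248 and smaller for 2112.

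Signs turned for the following values, none called in edgeR's test. CDKN2A was 0.0174 with upper-quartile factors, 0.0072 in the 4 KO libraries only, 0.0199 and 0.0188 with limma at pseudocounts of 0.1 and 1, and -0.0656 to 0.0345 with 1 library left out. HAND2 was 0.0129, 0.0026, 0.0159 and 0.0158 in those fits and -0.053 to 0.0154 with 1 left out. With 1 library left out CEACAM5 ranged from -2.17 to 8.39, IGJ from -4.87 to 4.58, PIGR from -1.85 to 5.21, each lowest without KO Nutlin-3a replicate 2. HS3ST1 then ranged from -0.47 to 0.84, SCARNA15 from -0.64 to 0.74, RPSAP58 from -1.08 to 0.39, SNORD78 from -0.96 to 0.32 and the BAX difference from -0.0559 to 0.10. Signs of called differences turned too. With limma on log2(RPKM + 1) they were 0.70 for TRIM43 (adjusted p = 0.00422), 0.44 for TRIM43B (0.0168), 0.88 for RFPL4A (0.00808), -0.48 for E2F2 (0.00423) and -0.17 for RHBDL3 (0.185), and the cause was not tested. With 2 libraries a group, the precision of genes with few reads is limited by counting. With limma on log2(RPKM + 0.1), the knockout calls of CHGA, DYNC2H1, IGF1R, KRT17, MCC, NUDT10 and RHBDL3 and the differences of E2F2, RHBDL3, TRIM43, TRIM43B and RFPL4A were lost.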
